A study of Homo sapiens with 6 samples.

Results

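Angiopoietins and vascular endothelial growth factors (VEGFs) and their receptors were examined in HCT116 cells, a long-established line from a human colorectal carcinoma with epithelial features. Sorting had divided the cells by surface CD133 into positive and negative fractions. CD133 is a surface glycoprotein encoded by PROM1. The 10 genes were ANGPT1, ANGPT2, ANGPTL4, TEK, TIE1, VEGFA, VEGFB, VEGFC, KDR and FLT1, out of 18404 genes with a probe set of their own on the array. They were listed by pathway with the low ANGPT2 signal of the CD133-positive fraction already known. The probe set of each gene was to be chosen by its mean signal over the 6 arrays, and each of the 10 genes had 1 probe set, so no choice was needed.

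Each fraction was measured on 3 arrays, 6 in all, numbered as repetitions 1, 2 and 3 in each fraction. Both fractions came from the same unmodified line, and the labels name no drug, transgene or knockout. The sort gate, the culture conditions and the time between sorting and lysis are not stated by the labels or the design text. Nor do the labels say that repetitions were separate cultures, so p-values measure only how far these samples spread, and that spread may be technical. The question of the design was which transcripts differ between the fractions.

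In vessels, VEGFs bind receptor tyrosine kinases on endothelial cells. KDR (VEGF receptor 2) carries most of the growth and permeability signal of VEGFA, while FLT1 (VEGF receptor 1) binds VEGFA and VEGFB and can act as a trap. VEGFC acts mainly on lymphatic endothelium through FLT4. ANGPT1 activates the receptor TEK (also called TIE2) and stabilises vessels. ANGPT2 binds the same receptor, often as an antagonist, and loosens vessels so that VEGF can act. TIE1 is a related receptor that modulates TEK. ANGPTL4 resembles the angiopoietins in structure but does not act through TEK and is best known as an inhibitor of lipoprotein lipase. Carcinoma cells are commonly a source of the ligands, whereas the receptors are typical of endothelium.

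All values below are Robust Multichip Average (RMA) signals in log2 units. A negative difference means a lower signal in CD133-positive than in CD133-negative cells. PROM1, the gene of the sorted antigen, lay between 7.09 and 7.59 on the CD133-positive arrays and between 3.97 and 5.30 on the CD133-negative arrays. Array medians were 5.44 to 5.60. The 8 measured epithelial markers all lay above the background bound described next. Above it also lay 8 of 14 endothelial markers, 7 of 12 fibroblast and pericyte markers and 3 of 10 leukocyte markers. EGFL7 at 7.15, COL1A1 at 7.47 and CD68 at 6.99, for example, exceeded it on all 6 arrays. The endothelial genes PECAM1, CDH5 and VWF, with means of 3.74, 4.47 and 4.05, and the leukocyte gene PTPRC at 2.39 lay below it on all 6 arrays.

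The table holds no detection calls, so background was estimated from olfactory receptor genes, which a colon line is not known to use. The 95th percentile of the means of 371 olfactory receptor probe sets was 4.96, and 69.6% of all genes lay above it. Probe sets differ in their affinity, so the bound is rough, and signals of different genes are not compared with each other. By this bound 4 of the 10 genes were above background, namely VEGFA, VEGFB, ANGPTL4 and ANGPT2. The other 6 were at background, including all 4 receptors. The number above background was 6 with the 90th percentile, 3 with the 99th and 1 with keratin-associated protein genes as the reference (95th percentile 7.38), VEGFA being the 1 left.

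**Figure D1:**
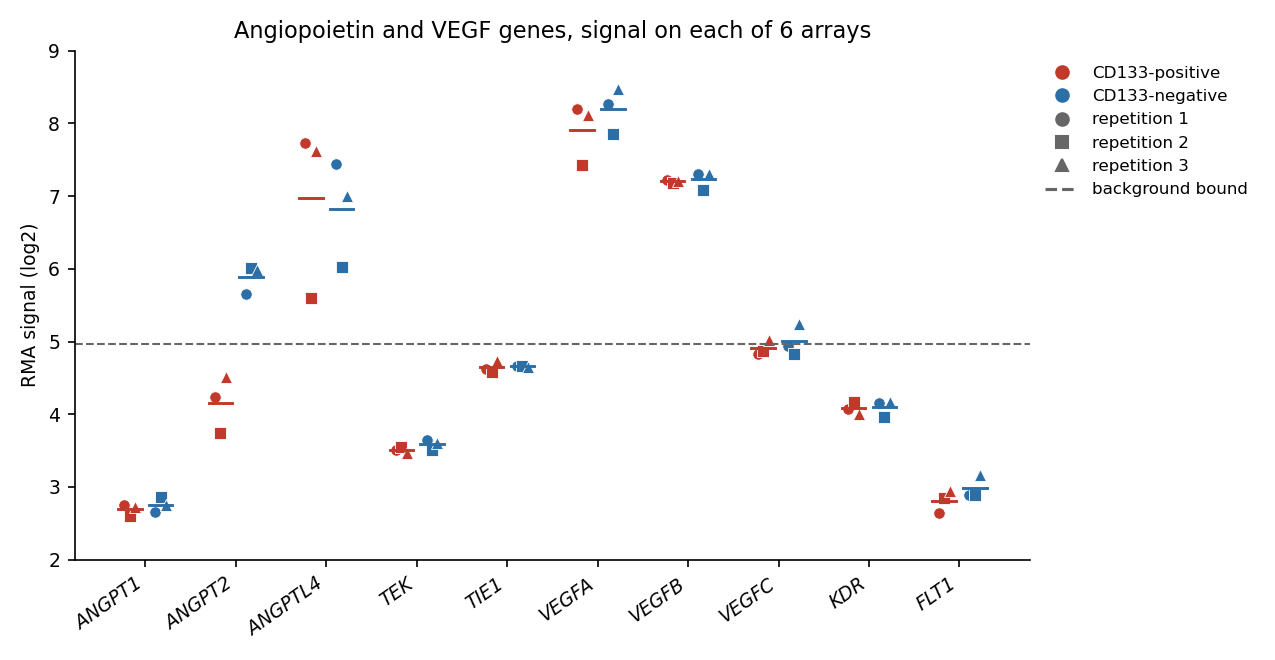
RMA signal (log2, vertical axis) of the 10 genes on each of the 6 arrays; red points are CD133-positive and blue points CD133-negative, symbols mark repetitions, short lines are group means and the dashed line is the background bound of 4.96. ANGPT2 is the gene whose fractions separate, with CD133-positive arrays at 3.74 to 4.51 and CD133-negative arrays at 5.65 to 6.02, while ANGPTL4 and VEGFA separate repetition 2 (squares) from the others.

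Among the angiopoietin ligands, ANGPT2 differed between the fractions. It measured 4.23, 3.74 and 4.51 in CD133-positive repetitions 1, 2 and 3 and 5.65, 6.02 and 5.99 in the CD133-negative arrays of the same numbers. The fractions did not overlap, and the closest values were 1.14 apart. The CD133-positive arrays all lay below the background bound of their own array and the CD133-negative arrays all lay above it, so ANGPT2 was above background in the CD133-negative fraction and at background in the CD133-positive fraction. Group means were 4.16 ± 0.39 and 5.88 ± 0.20 (SD, n = 3 each). The difference was -1.72 (SE 0.17), which is 3.30-fold lower in CD133-positive cells. With each CD133-positive array set to its bound in place of its lower measured value, ANGPT2 was at least 1.88-fold lower. Both statements rest on the 95th percentile. With the 99th (6.41), or with keratin-associated protein genes, all 6 ANGPT2 signals lay below background, and no least fold can be given.

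Within repetitions 1, 2 and 3 the ANGPT2 difference was -1.42, -2.28 and -1.47. With the repetition as a block, limma fitted across all probe sets gave ANGPT2 an adjusted p of 0.0301, and without the block it gave 0.142. The call also ended without replicate 3 (0.146) and with all rows of the table tested (0.159). In these settings 0 of 28230 and 0 of 32321 probe sets passed, so no gene kept a call. The gene was listed with this difference known, so these values describe it and are not independent evidence. In these bulk samples, fewer cells with the transcript and less transcript per cell cannot be told apart. The ANGPT2 and MCPH1 genes overlap in the RefSeq annotation. MCPH1 was not analysed here.

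ANGPT1, the ligand that activates TEK, was at background in both fractions. Its signals were 2.75, 2.61 and 2.72 in CD133-positive and 2.65, 2.86 and 2.76 in CD133-negative repetitions 1, 2 and 3, and the fractions overlapped. The difference was -0.07 (95% interval -0.30 to 0.17). ANGPT4, a further TEK ligand, had a mean of 4.88 and exceeded the bound on 1 of 6 arrays, with a difference of 0.06 (SE 0.08).

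The receptors of the angiopoietins did not exceed the bound on any array. TEK measured 3.51, 3.56 and 3.47 in CD133-positive and 3.64, 3.51 and 3.60 in CD133-negative cells, a difference of -0.07 (95% interval -0.28 to 0.13). TIE1 measured 4.62, 4.58 and 4.74 against 4.67, 4.66 and 4.65, a difference of -0.013 (95% interval -0.21 to 0.19). Both ranges overlapped between the fractions. PTPRB, the phosphatase that acts on TEK in endothelium, was also below the bound on all 6 arrays (mean 3.16).

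VEGFA, the main ligand of KDR, was above the bound on all 6 arrays. It measured 8.20, 7.43 and 8.11 in CD133-positive repetitions 1, 2 and 3 and 8.26, 7.86 and 8.47 in CD133-negative repetitions 1, 2 and 3. The fractions overlapped, although the CD133-positive array was the lower of the pair in 3 of 3 repetitions. The difference was -0.28 (SE 0.10, 95% interval -0.52 to -0.04), with an unadjusted limma p of 0.0280 and an adjusted p of 0.369 over all probe sets. The VEGFA probe set covers the whole transcript, so splice forms of VEGFA are not resolved.

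VEGFB, a ligand of FLT1, was also above the bound on all 6 arrays. Its signals lay close together, at 7.23, 7.18 and 7.21 in CD133-positive and 7.31, 7.09 and 7.30 in CD133-negative cells. The difference was -0.028 (95% interval -0.23 to 0.18). VEGFC, the lymphatic ligand, measured 4.83, 4.87 and 5.02 against 4.94, 4.84 and 5.24, and exceeded the bound of its array on 1 of 6 arrays, CD133-negative repetition 3. Its difference was -0.10 (95% interval -0.31 to 0.11). PGF, the placental ligand of FLT1, had a mean of 5.96 and a difference of -0.021 (SE 0.10).

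KDR and FLT1, the receptors of VEGFA, were below the bound on all 6 arrays. KDR measured 4.07, 4.17 and 4.002 in CD133-positive and 4.16, 3.97 and 4.16 in CD133-negative cells, a difference of -0.016 (95% interval -0.26 to 0.22). FLT1 measured 2.64, 2.85 and 2.94 against 2.89, 2.89 and 3.16. FLT1 was lower in CD133-positive cells in 3 of 3 repetitions, by -0.17 on average (95% interval -0.38 to 0.04; limma adjusted p = 0.524), and the fractions overlapped. FLT4, the receptor of VEGFC, exceeded the bound on 6 of 6 arrays, with a mean of 5.27 and a difference of 0.07 (SE 0.10). The co-receptors NRP1 and NRP2 had means of 4.64 and 4.35 and differences of -0.13 (SE 0.11) and -0.0043 (SE 0.08).

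**Figure D2:**
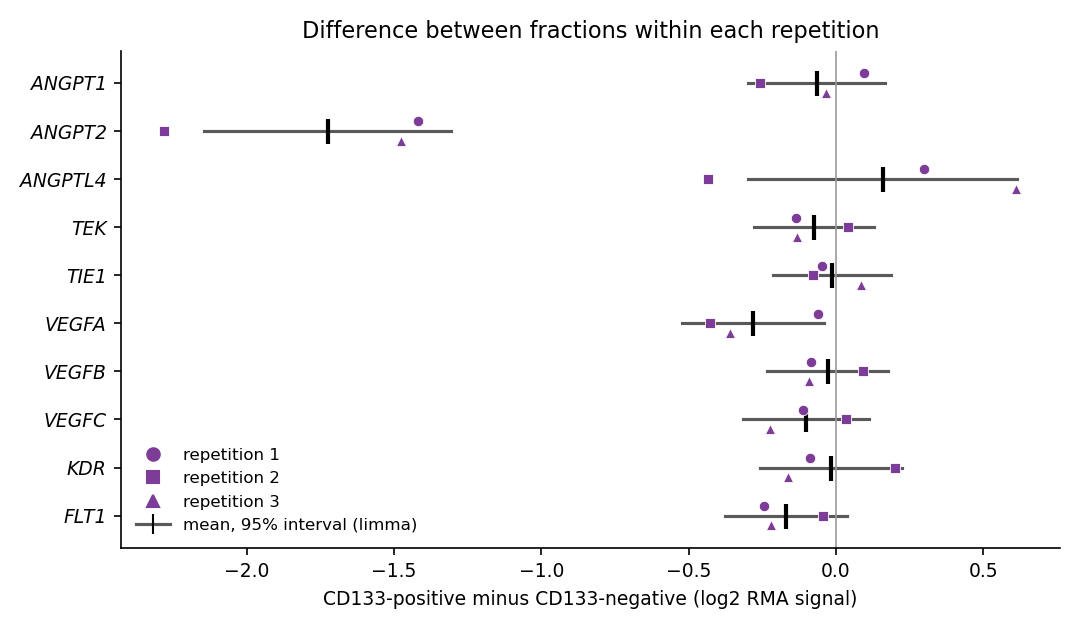
CD133-positive minus CD133-negative log2 signal (horizontal axis) of the 10 genes within repetitions 1, 2 and 3 (symbols), with the mean and its 95% interval from the paired limma fit. The 3 ANGPT2 differences lie between -2.28 and -1.42, and the largest of the other 9 genes' intervals in either direction end at -0.52 (VEGFA) and 0.61 (ANGPTL4).

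Counted over the list, 1 of the 10 genes, ANGPT2, passed in the paired limma fit at an adjusted p under 0.05, where 0.298% of the 28230 probe sets passed. Without the block 0 of the 10 passed by limma, against 0.00354% of probe sets, and ANGPT2 alone had an unadjusted p under 0.05, against 3.45% of probe sets. In the paired fit ANGPT2 and VEGFA, 2 of the 10, had an unadjusted p under 0.05, as did 11.3% of probe sets. The fractions did not overlap for 1 of the 10, again ANGPT2, and for 7.78% of probe sets. ANGPT2, VEGFA and FLT1, 3 of the 10, were lower in CD133-positive cells in all 3 repetitions, as were 16.8% of probe sets. The median difference of the 10 genes was -0.07, beside -0.0064 over all genes. Since ANGPT2 was listed for its difference, nothing is read from these counts.

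ANGPTL4, the lipoprotein lipase inhibitor, had the widest spread of the 10 genes between arrays of 1 fraction. It measured 7.73, 5.59 and 7.62 in CD133-positive repetitions 1, 2 and 3 and 7.44, 6.02 and 7.005 in CD133-negative repetitions 1, 2 and 3. Both arrays of repetition 2 were lower than the other 4 arrays, whichever the fraction. Group means were 6.98 ± 1.20 and 6.82 ± 0.72 (SD, n = 3 each), and the difference between fractions was 0.16 (95% interval -0.30 to 0.61; limma adjusted p = 0.813). The sign was not the same in all repetitions, at 0.30, -0.43 and 0.61.

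VEGFA was also lowest in repetition 2. Its repetition means over both fractions were 8.23, 7.64 and 8.29, and those of ANGPTL4 were 7.58, 5.81 and 7.31. Repetition means thus spanned 1.78 for ANGPTL4 and 0.65 for VEGFA, against fraction differences of 0.16 and -0.28. For ANGPT2 the reverse held, with a span of 0.37 between repetitions against -1.72 between fractions. The spans of the other 7 genes ran from 0.040 (ANGPT1) to 0.28 (FLT1).

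An F test between repetitions in the paired limma fit, added after these values were seen, gave adjusted p = 0.0183 for ANGPTL4 and 0.0336 for VEGFA. These were 2 of the 10 genes, where 13.0% of probe sets passed the same test. Both calls depended on repetition 2, being 0.284 and 0.807 without it. VEGFA also lost its call without repetition 3 (0.0763) and with arrays centred on their medians (0.0576), and both genes lost theirs with all rows of the table tested (0.0561 and 0.0741). Of all probe sets, 313 of 28230 passed without repetition 2, 488 of 28230 without repetition 3 and 69 of 32321 with all rows tested.

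Among oxygen sensing genes and targets of hypoxia-inducible factor (HIF), a class to which VEGFA and ANGPTL4 belong, most were also lowest in repetition 2. Of 18 measured genes, 12 passed the F test between repetitions (66.7%, beside 15.3% of all genes). That share is not matched for signal, since all 18 lay above the background bound, as did 69.6% of all genes. With only probe sets above the median mean tested, 16 of the 18 passed, as did 6791 of 14115 probe sets. Of all 18, 15 had their lowest mean in repetition 2 (83.3%), as did 42.1% of all genes. So did 85.7% of endothelial, 75% of fibroblast and pericyte and 70% of leukocyte markers. The median of repetition 2 minus the mean of the other repetitions was -0.91 for the 18 genes. It was -0.16, -0.12 and -0.14 in those marker lists and -0.027 over all genes. Array medians were 5.46 and 5.44 in repetition 2 and 5.51 to 5.60 on the other arrays. Of the 12 hypoxia response genes that passed, 11 were lowest in repetition 2. The matching share of all passing genes was not computed. HIF1A, the oxygen-regulated subunit itself, was highest in repetition 2, and so were VHL and HIF1AN. NDRG1, a stress-induced HIF target, had a mean of 8.58 in repetition 2 against 10.65 and 11.09 in repetitions 1 and 3 (adjusted p = 0.00570). P4HA1, a collagen prolyl hydroxylase, had 8.21 against 10.07 and 10.09 (adjusted p = 0.00673), and the peptide hormone gene ADM had 8.76 against 9.97 and 10.19 (adjusted p = 0.00970). With all rows tested 7 of the 18 passed, as did 69 of 32321 probe sets. Without repetition 2, by limma 0 of the 18 passed, as did 313 of 28230 probe sets. In that fit 5 of the 18 had an unadjusted p under 0.05, as did 5546 of 28230 probe sets. NDRG1, P4HA1 and ADM were picked for display after their values were seen. Whether oxygen, density or handling differed between repetitions was not tested.

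**Figure D3:**
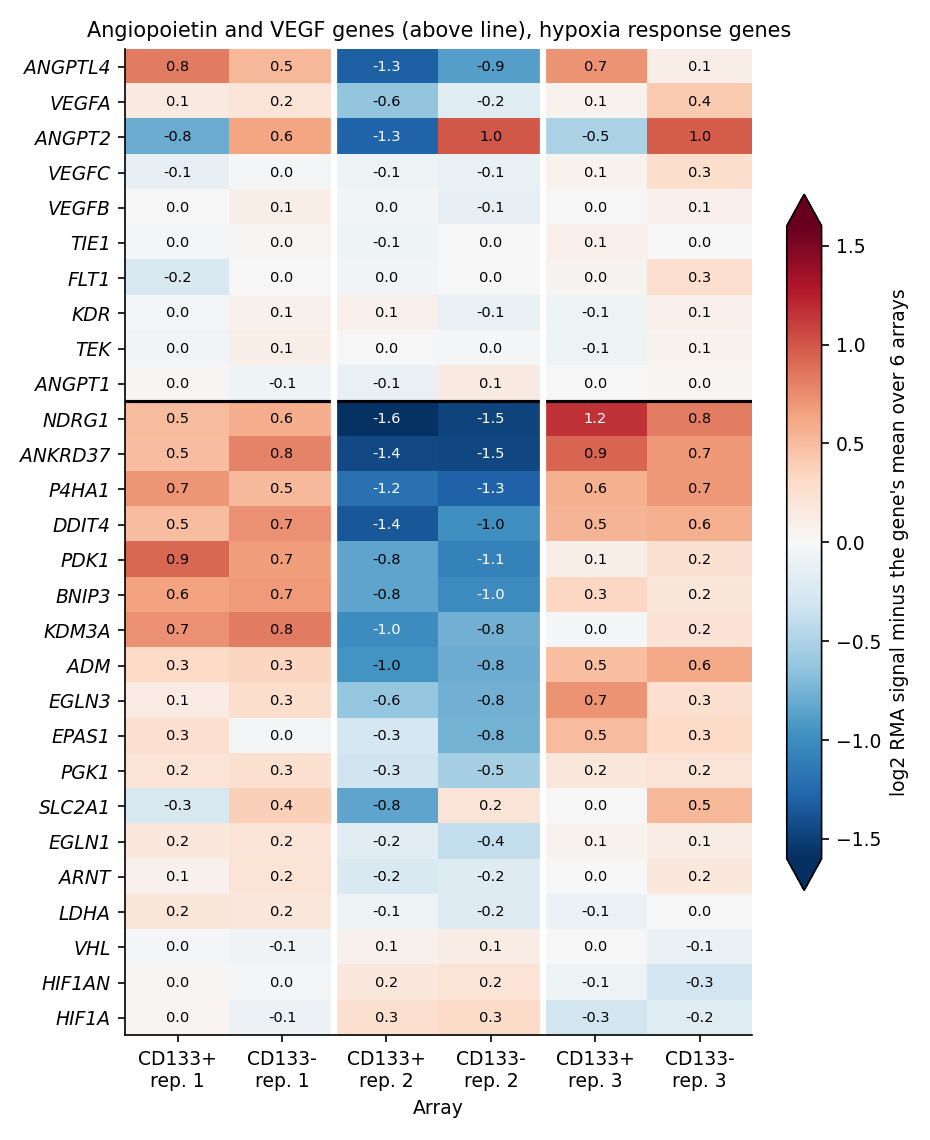
Log2 signal of each array minus the gene's own mean over the 6 arrays (colour and printed value), for the 10 genes above the line and 18 hypoxia response genes below it; columns are arrays, ordered by repetition and fraction. Repetition 2 is blue for ANGPTL4, VEGFA and most hypoxia response genes in both fractions, whereas ANGPT2 alternates with the fraction.

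The promoters of some of the ligands could be looked at in sequence. The HIF core motif was searched as ACGTG or GCGTG on both strands, so that CACGT and CACGC on the printed strand also count, and overlapping matches count separately. The window was the 250 bases before the start site in RefSeq (GRCh38.p14). A match stood in 43.2% of 35097 such windows. Windows were held for 7 of the 10 genes. None was held for VEGFA, ANGPT1 or ANGPT2, so these promoters were not searched. The 3 ligands with a window are shown because ANGPTL4 differed between repetitions while VEGFB and VEGFC did not pass that test. Each is printed 5′ to 3′ on the strand of its gene, with matches in capitals.
ANGPTL4 (chr19:8363905-8364154, plus strand): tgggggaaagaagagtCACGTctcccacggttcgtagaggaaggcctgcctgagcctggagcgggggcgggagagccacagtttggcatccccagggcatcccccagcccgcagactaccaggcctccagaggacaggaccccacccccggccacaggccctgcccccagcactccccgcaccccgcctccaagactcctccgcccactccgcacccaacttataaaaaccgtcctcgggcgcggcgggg
VEGFB (chr11:64234334-64234583, plus strand): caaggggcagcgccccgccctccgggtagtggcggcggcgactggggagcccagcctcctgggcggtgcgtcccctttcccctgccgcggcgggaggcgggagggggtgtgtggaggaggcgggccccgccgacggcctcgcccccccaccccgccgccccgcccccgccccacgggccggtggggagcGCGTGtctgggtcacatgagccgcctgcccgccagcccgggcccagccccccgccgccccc
VEGFC (chr4:176792923-176793172, minus strand): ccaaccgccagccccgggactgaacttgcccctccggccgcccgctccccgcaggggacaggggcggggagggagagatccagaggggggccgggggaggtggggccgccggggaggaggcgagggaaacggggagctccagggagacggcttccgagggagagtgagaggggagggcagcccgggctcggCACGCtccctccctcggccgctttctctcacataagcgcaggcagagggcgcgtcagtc

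Each of the 3 windows held 1 match. It began 234 bases before the start site in ANGPTL4, 61 in VEGFB and 59 in VEGFC. FLT1 also had 1, at 206 bases, and TEK, TIE1 and KDR had none. The windows of ANGPTL4, VEGFB and VEGFC had a GC content of 68.8%, 82.8% and 74.0%, beside a median of 58.0% over all windows. A match is a description of the letters and not a site of binding.

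The other genes of the pathways did not pass between fractions. Of 23 measured further ligands, receptors, adaptors and effectors, 0 passed in the paired limma fit. An unadjusted p under 0.05 was found for 1 of them, and for 11.3% of probe sets. Of the 23, 12 were above 0 and 11 below, with a median of 0.0045. PLCG1, the phospholipase that KDR activates, had a difference of -0.32 (SE 0.09, adjusted p = 0.257). The focal adhesion adaptor PXN had -0.20 (SE 0.08, adjusted p = 0.443). FOXO1, a transcription factor that drives ANGPT2 in endothelium, had 0.07 (SE 0.08).

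Of 17 other secreted angiogenic ligands, 14 were below 0, as were 52.1% of all genes, and their median was -0.09. By limma 0 of the 17 passed in the paired fit, and 4 of the 17 had an unadjusted p under 0.05 (11.3% of probe sets), each with a negative difference. PDGFC and PDGFB, ligands of platelet-derived growth factor receptors, had differences of -0.41 (SE 0.09, adjusted p = 0.165) and -0.49 (SE 0.12, adjusted p = 0.218). PDGFB measured 6.13, 6.38 and 6.52 in CD133-positive and 6.53, 7.18 and 6.78 in CD133-negative cells, without overlap.

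Of 15 genes that process or release these ligands from matrix, 1 passed in the paired limma fit, where 0.298% of probe sets passed. THBS1, an inhibitor of angiogenesis that binds matrix and VEGFA, was lower in CD133-positive cells, at 6.53, 7.50 and 6.66 against 7.42, 9.09 and 8.10. The difference was -1.31 (SE 0.14, adjusted p = 0.0338), and the fractions overlapped. Repetition 2 was the highest in both. The THBS1 call was already known from the whole table and ended without the block, without replicate 2, without replicate 3 and with all rows tested. Of all probe sets, 1 of 28230 passed without the block and 18 of 28230 without replicate 2. Without replicate 3, and with all rows tested, 0 passed. The median of the 15 genes was -0.0044.

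Between fractions, hypoxia response genes had a median difference of 0.033, with 11 of 18 above 0. By limma 0 passed in the paired fit and 2 had an unadjusted p under 0.05 (11.3% of probe sets). SLC2A1, the glucose transporter GLUT1, measured 11.13, 10.55 and 11.38 in CD133-positive and 11.78, 11.60 and 11.93 in CD133-negative cells. Its fractions did not overlap, and the difference was -0.75 (SE 0.12, adjusted p = 0.0848). EPAS1, which encodes HIF-2 alpha, had the opposite sign, at 0.32 (SE 0.09, adjusted p = 0.273).

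Peroxisome proliferator-activated receptors (PPARs), which induce ANGPTL4, and their targets were represented by 7 genes. By limma 0 passed in the paired fit and 2 had an unadjusted p under 0.05 (11.3% of probe sets). PPARG measured 6.32, 6.50 and 6.50 in CD133-positive and 6.04, 6.14 and 6.17 in CD133-negative cells, without overlap, a difference of 0.33 (SE 0.08, adjusted p = 0.209). PPARA differed the other way, by -0.29 (SE 0.08, adjusted p = 0.284). The median of the 7 genes was 0.07.

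**Figure D4:**
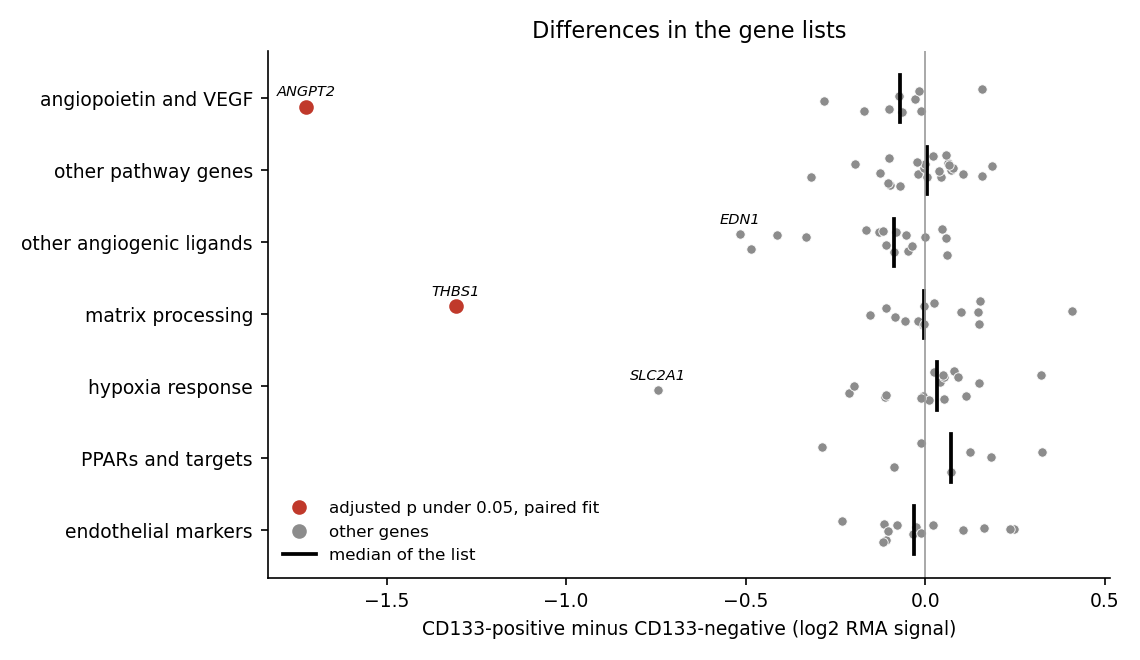
CD133-positive minus CD133-negative log2 signal (horizontal axis) of each measured gene in 7 lists; black bars are list medians and red points passed at an adjusted p under 0.05 in the paired limma fit. ANGPT2 at -1.72 and THBS1 at -1.31 are the red points, and every list median lies between -0.09 and 0.07.

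Markers of other cell types were read beside ANGPT2, which endothelial cells also make. The mean signal of 14 endothelial markers was 4.98 to 5.21 on CD133-positive and 4.95 to 5.15 on CD133-negative arrays. Those with the smallest p were CD34 at 0.24 (SE 0.08, limma adjusted p = 0.365) and ENG at -0.23 (SE 0.10, adjusted p = 0.472). The mean of 12 fibroblast and pericyte markers was 4.54 to 4.69 and 4.56 to 4.80 in the same order. COL1A1 had -0.19 and COL3A1 -0.21. The mean of 10 leukocyte markers was 4.30 to 4.42 and 4.23 to 4.57, with CD68 at 0.22 and MS4A1 at -0.28. By limma 0 genes of these 3 lists passed in the paired fit, and CD34 alone had an unadjusted p under 0.05 (11.3% of probe sets). The part of such cells in the ANGPT2 difference was not tested beyond these values. The 8 epithelial markers had a median difference of 0.21, and by limma 0 passed while 4 had an unadjusted p under 0.05 (11.3% of probe sets). KRT18 had -0.48 and CLDN7 0.48 (adjusted p = 0.0989 and 0.143).

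The genes whose signal ran most like that of ANGPT2 over the 6 arrays were PIK3R3, TENM3, PEG10, UCP2 and ASAP2. They were taken from 1013 genes above the bound with a range of at least 1 on the log2 scale, and their Pearson correlations with ANGPT2 were 0.980, 0.979, 0.970, 0.965 and 0.962. PIK3R3, which encodes a regulatory phosphoinositide 3-kinase subunit, measured 5.14, 4.80 and 4.99 in CD133-positive and 5.89, 5.98 and 6.06 in CD133-negative cells. ASAP2, a regulator of ARF GTPases, had means of 7.15 and 7.90. The genes that ran most against ANGPT2 were GALNT14, MAL2 and MTUS1, at -0.991, -0.978 and -0.972. GALNT14, a glycosyltransferase of mucin-type chains, measured 6.71, 6.88 and 6.41 against 5.81, 5.65 and 5.46. These correlations rest on 6 arrays that share a fraction or a repetition, and they carry no test.

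The genes most like VEGFA were OPTN, SESN3, RNF24, PGM2L1 and PTCH1, with correlations of 0.994, 0.983, 0.983, 0.981 and 0.980. OPTN, an autophagy receptor, measured 6.86, 6.03 and 6.84 in CD133-positive and 6.92, 6.43 and 7.22 in CD133-negative cells, so its repetition 2 was low in both fractions. SESN3, a stress-induced regulator of growth signalling, had 6.13, 5.04 and 6.08 against 6.50, 5.53 and 6.64. With repetition means subtracted, 1 of the 5 genes stayed among the 5 most like VEGFA, and 0 of the 5 stayed among those most like ANGPT2. The correlations of these 5 with ANGPT2 did not fall, so other genes ranked above them. For PIK3R3, TENM3, PEG10, UCP2 and ASAP2 the correlations were 0.988, 0.982, 0.973, 0.969 and 0.977. The subtraction leaves only the difference between fractions within each repetition. Genes picked for following ANGPT2 between the fractions then stay high largely by construction, so nothing is read from these values.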

How the data were processed

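Total RNA of sorted HCT116 cells was labelled by a whole-transcript protocol for Affymetrix arrays, as the labels' protocols state. The deposited values are log2 signals that the authors made with RMA, per the labels' design text, with no version named. Their range, 1.09 to 13.7, fits a log2 scale. The design text names a U133 array, but the row identifiers are those of a Gene ST array, whose annotation was used.

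Of 32321 rows, 4091 that precede the first annotated gene were left out, leaving 28230 probe sets, of which 19158 had 1 gene symbol, 1388 several and 7684 none. Of 27 further pathway genes 23 had a probe set of their own. The paired comparison was fitted with limma 3.58.1 in R 4.3.3 with the repetition as a block, with Benjamini-Hochberg adjustment over all probe sets. Arrays were paired by the repetition number in their labels, which do not state a shared culture or sort. After subtraction of group means, arrays with equal numbers correlated at 0.447, 0.616 and 0.589, above 0.1 in each pair. Arrays with equal numbers thus deviated alike, which does not show what they shared. The fit was also run on data simulated from its own fitted model. Such data cannot show whether that model suits these arrays.

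The members and lists were chosen with earlier results of these data known. Named were the 10 genes, per list the genes that passed or the 2 with the smallest p, and for ANGPT2 and VEGFA the 5 genes of highest correlation (and the 3 lowest for ANGPT2). ANGPT4, PTPRB, PGF, FLT4, NRP1, NRP2, FOXO1 and genes said to be picked later were added. Alternatives covered the block, leaving out each repetition, normalization, filters, the prior, control rows and probe set choice. The number of arrays limits the precision.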

Additional observations from a re-analysis of the deposited data

How the results depend on the processing

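With 3 pairs of arrays, small differences could not be told from 0, and signals near background understate changes. The count of the 10 genes that passed between fractions was 1 in the paired fit. It was 0 with no replicate block, 0 with the filter above the median mean (which removed ANGPT2 and left 3 of the 10), 0 with all rows tested, and 0 to 1 with each replicate left out. It stayed at 1 with repeated quantile normalization, centring, the trend prior and the mean of probe sets. Over all probe sets, 84 of 28230 passed in the paired fit and 1 of 28230 with no replicate block. With all rows tested, and without replicate 3, 0 passed. The filter gave 403 of 14115 and the trend prior 389 of 28230. Repeated quantile normalization gave 67 of 28230, centring 84 of 28230 and the mean of probe sets 94 of 27476. Without replicate 1 the count was 43 of 28230, and without replicate 2 it was 18 of 28230. The ANGPT2 difference was -1.88 to -1.45 with each replicate left out. Matrix processing genes that passed numbered 1 in the paired fit, 0 with no replicate block, 0 with all rows tested, 2 with the filter, 2 with the trend prior and 0 to 1 with each replicate left out. Hypoxia response genes that passed rose from 0 to 1 with the filter and with the trend prior (SLC2A1), and other angiogenic ligands rose from 0 to 1 with the filter (PDGFC).

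Genes above background fell from 4 to 1 with the keratin-associated protein reference. Of the 10 genes, those that differed between repetitions numbered 2 and became 1 with centring, 0 with all rows tested and 0 to 2 with each replicate left out. Hypoxia response genes that did so numbered 12, 16 with the filter, 17 with the trend prior, 13 with centring, 7 with all rows tested and 0 to 13 with each replicate left out. The counts over all probe sets moved too. They were 3680 of 28230 in the paired fit, 6791 of 14115 with the filter and 6335 of 28230 with the trend prior. Centring gave 4845 of 28230, all rows 69 of 32321, and leaving out each replicate 313 to 4371 of 28230. Differences near 0 changed sign. With repeated quantile normalization TIE1 became 8.0e-05 and KDR 0.0012. With each replicate left out, ANGPT1 ran from -0.15 to 0.030, ANGPTL4 from -0.067 to 0.45, TIE1 from -0.062 to 0.018, VEGFB from -0.088 to 0.0039 and KDR from -0.13 to 0.057. ANGPT2, VEGFA, VEGFC, TEK and FLT1 kept their sign under each alternative that gave a value.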
